A study of Mus musculus with 24 samples.

Results

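The diet comparison after ovariectomy rested on the colons of 8 mice, 4 from F(OVX) + HFD and 4 from F(OVX) + LFD, out of 24 arrays in the series. They were taken as all samples labelled ovariectomized, each measured on 1 single-colour Agilent array, and they lay together on 1 slide. All mice were female C57BL/6J bought at 7 weeks of age. Their ovaries had been removed before the diets began, and they received 14 weeks of either LFD (10 kcal% fat) or HFD (45 kcal% fat). Every mouse of both groups also carried the tumour-inducing treatment, azoxymethane (AOM, 10 mg/kg) followed by 3 cycles of 1.5% dextran sulfate sodium (DSS) in drinking water, so the LFD mice were not untreated controls. The mice were killed 75 days after AOM. The other 16 arrays came from males (M) and ovary-intact females (F) given the same AOM, DSS and diets, 4 of each sex on either diet. The study chose the array animals for body weights near the group average. Its methods give the array tissue as the distal colon that remained after a segment was taken for histology. They do not give the position of each sample within it.

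Ovariectomy removes the main source of circulating estrogen and is used as a model of menopause. The colon epithelium holds absorptive colonocytes, mucus-secreting goblet cells and hormone-secreting enteroendocrine cells, lies over a lamina propria of immune cells, and is wrapped in smooth muscle with its own nerve plexus. AOM is a mutagen and DSS injures the epithelium, so colons of this model carry inflammation and tumours. A piece of colon mixes these cells, and fewer cells of a type cannot be told apart from less RNA per cell.

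Values are log2 of the background-corrected signal after quantile normalization, and differences are F(OVX) + HFD minus F(OVX) + LFD. A gene counted as a DEG when it differed at least 1.5-fold with an unadjusted p under 0.05 in limma, and each difference is given with its standard error from that model. The tissue label fitted the epithelial markers: Epcam, Cdh1, Cdh17, Vil1, Krt8, Krt20, Cdx1, Cdx2, Muc2 and Lgals4 were well above background on all 8 arrays. Over these arrays 40.5% to 56.5% of probes were well above background. F(OVX) + LFD replicate 3 was the dimmest, with a 75th percentile of signal of 125 against 313 to 495 on the other arrays. All LFD arrays sat in 1 row of the slide and all HFD arrays in the other, so effects of row and of diet cannot be told apart.

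Of 19217 genes tested, 421 were DEGs (2.19%), with 226 higher (1.18%) and 195 lower (1.01%) in F(OVX) + HFD. None passed Benjamini-Hochberg adjustment in limma, where 708 genes (3.68%) had an unadjusted p under 0.05. The values of the diets did not overlap for 441 tested genes (2.29%), of which 161 were DEGs. For such a gene the exact permutation test over 70 assignments of the diets gives p = 0.0286, two-sided, the smallest possible with 4 against 4. Genes said not to overlap all have this value. By chance alone, shares as large as 0.05 in limma and 0.0286 in the permutation test would arise. The observed shares of 3.68% and 2.29% were smaller, so neither exceeded chance. Genes lower with HFD included the calcium-binding S100g, the inducible nitric oxide synthase Nos2, the chemokine Ccl17 and the ubiquitin-like Ubd. Genes higher included the mucin glycosyltransferase B3gnt6, the membrane mucin Muc4 and the chloride channel regulator Clca4a. These 7 genes also stayed DEGs in the same direction under every alternative setting that could be run for them. Of 79 DEGs followed one by one, these 7 among them, 61 were lost in at least 1 setting. By the methods' t-test 44 were no longer DEGs, without a filter on dim probes 17, and with normexp background correction 12. Without F(OVX) + HFD replicate 2 the number lost was 42. It was 32 without HFD replicate 3, 31 without LFD replicate 4 and 7 to 24 without any other array.

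The gene lists that follow cover cell types and pathways of the colon. The upstream regions of Ccl20, Ubd and S100g are shown first because their genes were among the DEGs with a lower signal in F(OVX) + HFD. They are the 250 bases before the transcription start in RefSeq, build GRCm38.p6, written 5′ to 3′ on the strand of the gene. Capitals mark, for Ccl20 and Ubd, the match to the NF-kappaB element on either strand, and for S100g GGTTCA on either strand, a hexamer of the element bound by the vitamin D receptor.
Ccl20, chr1:83116516-83116765, plus strand: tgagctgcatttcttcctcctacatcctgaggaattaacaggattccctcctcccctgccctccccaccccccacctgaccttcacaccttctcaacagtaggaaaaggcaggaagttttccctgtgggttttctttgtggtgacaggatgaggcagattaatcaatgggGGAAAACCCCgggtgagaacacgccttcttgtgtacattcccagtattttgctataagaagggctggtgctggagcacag
Ubd, chr17:37193642-37193891, plus strand: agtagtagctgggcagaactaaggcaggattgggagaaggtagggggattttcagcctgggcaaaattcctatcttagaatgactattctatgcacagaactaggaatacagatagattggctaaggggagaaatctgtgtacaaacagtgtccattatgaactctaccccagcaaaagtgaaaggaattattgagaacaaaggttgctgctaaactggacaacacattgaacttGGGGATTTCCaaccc
S100g, chrX:162964600-162964849, minus strand: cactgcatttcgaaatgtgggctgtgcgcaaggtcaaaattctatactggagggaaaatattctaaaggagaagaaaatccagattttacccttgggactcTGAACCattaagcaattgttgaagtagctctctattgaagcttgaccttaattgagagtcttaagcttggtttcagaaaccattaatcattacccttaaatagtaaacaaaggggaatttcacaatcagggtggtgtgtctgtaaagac
The NF-kappaB element was found in 7.25% of 32851 such regions, and GGTTCA in 8.85%. Among the named DEGs with a region in the table, 6 of 57 held the NF-kappaB element, 4 of them higher with HFD (Des, Pcsk5, Ednrb and 4833412C05Rik) and 2 lower (Ccl20 and Ubd). The hexamer was held by 5 of 57. A match describes letters only.

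Inflammatory genes were among the falls. Nos2 makes nitric oxide in activated macrophages and in inflamed epithelium. It read 9.74, 8.92, 10.01 and 9.47 in F(OVX) + LFD and 6.69, 7.29, 7.62 and 8.48 in F(OVX) + HFD. All HFD values lay below all LFD values, and the difference of -2.02 ± 0.38 (SE) was a 4.04-fold fall (exact permutation p = 0.0286). Ccl17, a chemokine that attracts T cells through CCR4, read 6.39, 6.88, 8.15 and 8.08 with LFD and 5.48, 5.05, 4.83 and 5.97 with HFD. It was 4.10-fold lower (-2.04 ± 0.43). Ccl17 was well above background on 3 of the 4 HFD arrays, so it entered the test only through the LFD group, where it was high. Ubd, a ubiquitin-like modifier induced by inflammatory cytokines, was lower by a log2 difference of -1.31 ± 0.39. Its 4 HFD values ran from 7.91 to 9.28, under the LFD range of 9.49 to 10.82.

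Ccl20, which recruits cells bearing CCR6, read 9.03, 9.14, 8.92 and 7.88 with LFD and 7.85, 5.23, 6.93 and 8.62 with HFD. The groups overlapped, since HFD replicate 4 exceeded LFD replicate 4, and the difference was -1.58 ± 0.66 (exact permutation p = 0.0571). It was no longer a DEG without any 1 of LFD replicates 1, 2 or 3 or HFD replicates 2 or 3. Il18r1, a chain of the interleukin 18 receptor, was lower without overlap (-1.03 ± 0.24). Ccl20 and Il18r1 were the DEGs among 58 tested members of the cytokine, chemokine and receptor list, which holds neither Ccl17 nor Cxcl5 (3.45% lower, against 1.01% of all genes, and 0 higher), where 42 members were lower and the median difference was -0.20, beside 0.01 over all tested genes. The list had 5 DEGs lower without HFD replicate 4, 4 without LFD replicate 2 or HFD replicate 1, and 1 without HFD replicate 2 or HFD replicate 3; the median was -0.07 without HFD replicate 2. Pla2g2e, a secreted phospholipase A2, was lower without overlap (-2.53 ± 0.60), and Cd163l1, a scavenger receptor of the CD163 family, was lower by -2.75 ± 0.66 (exact permutation p = 0.0571). Each of the pair was well above background on 2 of the 4 HFD arrays, so both entered the test only through the LFD group.

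Of 22 tested macrophage and monocyte genes, all 22 were lower in F(OVX) + HFD, by 0.02 to 2.02 on the log2 scale, and the median difference was -0.46. Only 4 were DEGs (18.2%, against the 1.01% of all genes called lower). These were Nos2, the high-affinity antibody receptor Fcgr1 (-0.68 ± 0.28), the mannose receptor Mrc1 (-0.67 ± 0.27) and the adaptor Tyrobp (-0.63 ± 0.23). The mean level of the list was 10.31, 9.93, 10.32 and 10.35 with LFD and 9.90, 9.47, 9.65 and 9.94 with HFD, so F(OVX) + HFD replicate 4 lay just above F(OVX) + LFD replicate 2. The count was 1 without HFD replicate 2, 2 without LFD replicate 3 or LFD replicate 4, 9 without LFD replicate 2 and 8 without HFD replicate 1.

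Neutrophil genes were fewer, with 6 tested members, a median of -0.91 and 1 DEG, which was lower (16.7%, against 1.01% of all genes). The DEG among them was Cxcl5, a chemokine for neutrophils, which read 8.86, 5.22, 8.97 and 9.68 with LFD and 5.82, 4.50, 5.98 and 7.02 with HFD (-2.35 ± 0.94, exact permutation p = 0.114). LFD replicate 2 lay within the HFD range. Cxcl5 was well above background on 3 of the 4 HFD arrays, so it entered the test only through the LFD group, where it was high. S100a9, a subunit of calprotectin, had a difference of -2.05 and was not a DEG. Without LFD replicate 2 the count was 4 of 6, and it was 0 without any 1 of LFD replicates 1, 3 or 4 or HFD replicates 1 or 3.

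Lymphoid genes had 1 DEG in each list. These were 4.17% of T and NK cell genes and 5.26% of B and plasma cell genes, against 1.01% of all genes called lower. Il7r, the interleukin 7 receptor of T cells, was lower by -0.84 ± 0.33 among 24 T and NK cell genes, and Jchain, the joining chain of secreted IgA, was lower by -0.72 ± 0.31 among 19 B and plasma cell genes. The T and NK cell list had no DEG lower without any 1 of LFD replicates 1 or 3 or HFD replicates 2 or 3. None of 12 MHC class II genes was a DEG, while 11 were lower and the median was -0.42. For the B and plasma cell list the arrays of 1 group were far apart: its mean level was 10.26, 7.48, 8.45 and 10.24 with HFD and 8.83 to 9.98 with LFD. Without HFD replicate 2 the list median moved from -0.43 to 0.29 with no DEG, and the MHC class II median moved from -0.42 to -0.12; without HFD replicate 1, 4 MHC class II genes were DEGs, all lower.

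**Figure D1:**
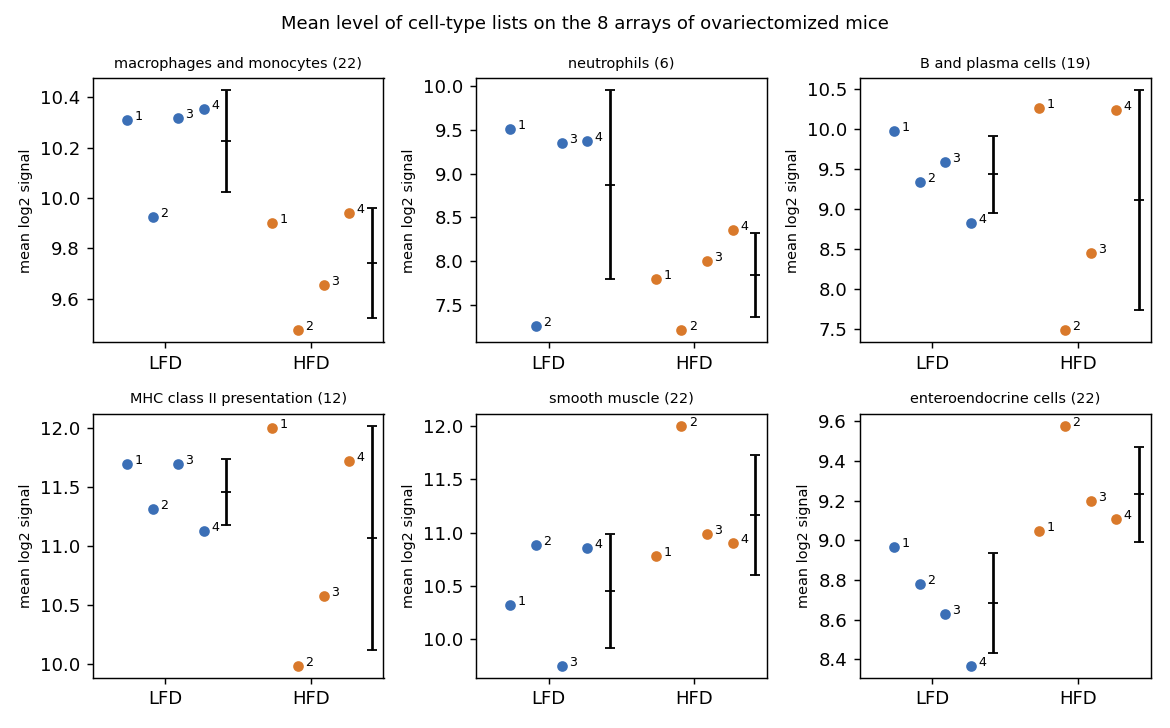
Mean log2 signal of the tested members of 6 cell-type lists on each of the 8 arrays of ovariectomized mice (numbers are replicates; the bar shows the mean and SD of 4 arrays; the number of members stands in each title). The macrophage means were 9.93 to 10.35 with LFD and 9.47 to 9.94 with HFD, while the B and plasma cell means of HFD replicates 1 and 4 lay above, and those of 2 and 3 below, the LFD range.

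Interferon-stimulated genes (43 tested), MHC class I genes (24) and adipocyte genes (11) held 0 DEGs. Their median differences were 0.19, -0.01 and 0.26. The interferon median was 0.57 with 3 DEGs higher without LFD replicate 3, 0.39 without HFD replicate 1, -0.01 without LFD replicate 2 and 0.03 to 0.04 without LFD replicate 1, HFD replicate 2 or HFD replicate 3. The adipocyte median was 0.10 without HFD replicate 2 and 0.13 to 0.15 without LFD replicates 1, 3 or 4. Paneth, Reg and antimicrobial genes held Nos2 as the only DEG of 18 (5.56%, against 1.01% of all genes), with 14 lower and a median of -0.38. Without LFD replicate 2 there were 6 DEGs, all lower, at a median of -0.64, without HFD replicate 1 or HFD replicate 2 there were 2, and without LFD replicate 4 or HFD replicate 2 the median was -0.21. Proliferation genes were higher for 33 of 35 members at a median of 0.27 with 0 DEGs. Of these, 20 of 35 were lower without HFD replicate 3, and 29 of 35 without LFD replicates 2 and 4.

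Calcium uptake genes gave some of the largest falls. S100g encodes calbindin D9k, which carries calcium across the enterocyte and is induced by vitamin D. It read 8.11, 10.25, 7.40 and 9.07 with LFD and 6.30, 3.22, 4.91 and 6.77 with HFD. The groups did not overlap and the difference was -3.41 ± 0.84, with 2 of 4 HFD arrays well above background. Trpv6, the apical calcium channel that acts with it, read 9.67, 6.06, 6.80 and 9.30 with LFD and 5.99, 2.40, 2.68 and 6.94 with HFD (-3.46 ± 1.20, exact permutation p = 0.114). Its groups overlapped, it too was well above background on 2 HFD arrays, and it was no longer a DEG without any 1 of LFD replicates 1 or 4 or HFD replicates 2 or 3. They were the DEGs of 12 tested vitamin D and calcium genes (16.7%, against 1.01% of all genes). However, both entered the test only through the LFD group, where they were high. With detection required on all 8 arrays 10 members were tested and 0 were DEGs. Of the 12, 6 were higher and 6 lower, at a median of 0.00.

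Glycan synthesis and mucin genes moved in both directions. B3gnt6 makes the core 3 O-glycans of colonic mucin. It read 8.24, 6.16, 8.68 and 6.82 with LFD and 9.28, 11.94, 10.04 and 9.50 with HFD, without overlap (2.71 ± 0.70, 6.55-fold). St8sia5, a sialyltransferase of gangliosides, went the other way, with 8.26, 10.49, 7.36 and 10.20 under LFD and 6.83, 2.19, 6.45 and 6.80 under HFD (-3.51 ± 1.12). Of 46 glycosyltransferase genes, 6 were higher and 2 lower among DEGs (13.0% and 4.35%, against 1.18% and 1.01% of all genes), and 33 of 46 were higher. The others higher were B4galnt1 (1.46 ± 0.63), B4galnt2 (0.80 ± 0.35), the sialyltransferases St3gal3 (0.72 ± 0.30) and St3gal1 (0.63 ± 0.18), and Chst4, which sulfates mucin glycans (0.77 ± 0.19). B4galt1, a galactosyltransferase, was lower (-0.74 ± 0.31). The list had 3 DEGs higher and 1 lower without any 1 of LFD replicate 4 or HFD replicates 1, 2 or 3. It had the same counts without a filter on dim probes and by the methods' t-test. Without LFD replicate 2 there were 3 higher and 2 lower, and without LFD replicate 1 there were 8 higher and 1 lower. B4galnt1, B4galnt2 and B4galt1 were no longer DEGs without any 1 of LFD replicates 2 or 4 or HFD replicates 1, 2 or 3.

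The membrane mucin Muc4 read 13.11, 11.79, 11.87 and 11.67 with LFD and 13.27, 13.74, 13.39 and 13.26 with HFD (1.30 ± 0.31). LFD replicate 1 stood above its group and just under the lowest HFD value. Muc1, another membrane mucin, was lower without overlap, from 6.64 to 8.32 with LFD down to 5.44 to 6.26 with HFD (-1.53 ± 0.35). Muc1 was well above background on 3 of the 4 HFD arrays, so it entered the test only through the LFD group, where it was high. Its difference ranged from -1.87 to -0.92 over the alternative settings. Muc2, the gel-forming mucin of goblet cells, was not a DEG by its brighter probe (0.27 ± 0.15, exact permutation p = 0.0857), and a second, dimmer probe gave 1.21. Of 21 goblet cell genes 18 were higher, at a median of 0.29, and 1 was a DEG (4.76%, against 1.18% of all genes). It was Spdef, the transcription factor of goblet cell maturation (0.76 ± 0.30), with 1 LFD array inside the HFD range. Spdef was no longer a DEG without any 1 of LFD replicates 2 or 4 or HFD replicates 2 or 3.

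**Figure D2:**
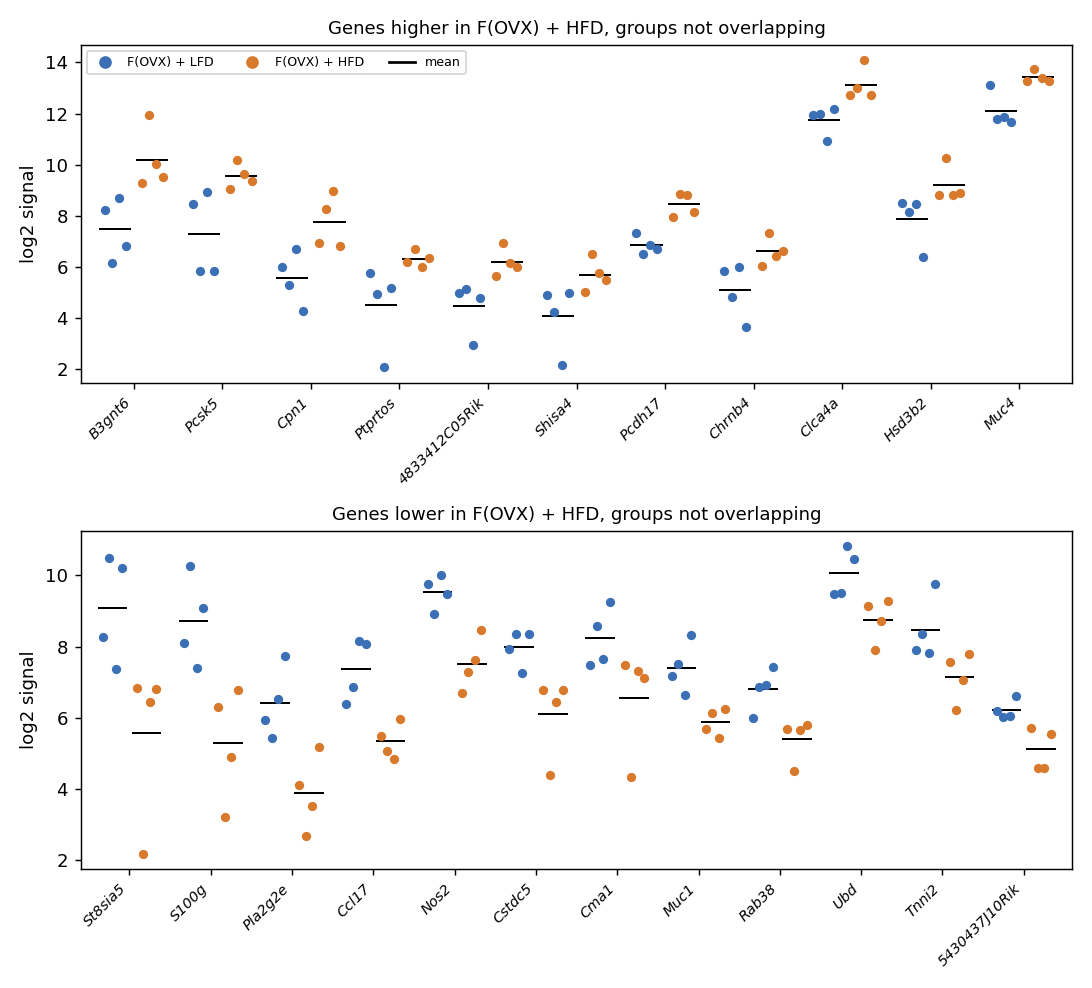
Log2 signal of DEGs with a symbol whose diets did not overlap, 11 of those with the largest rise (top) and the 12 with the largest fall (bottom); each point is 1 array (4 per diet) and the line is the mean. Nos2 lay at 8.92 to 10.01 with LFD and at 6.69 to 8.48 with HFD, while B3gnt6 lay at 6.16 to 8.68 and at 9.28 to 11.94.

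Genes of ion and water handling were higher for 25 of 36 members, with 3 DEGs higher (8.33%, against 1.18%) and 0 lower. The count was 1 without HFD replicate 2, 2 without LFD replicate 4 or HFD replicate 4, and 7 without LFD replicate 2. Guca2a, which encodes guanylin, was higher without overlap (0.90 ± 0.26), and so was its receptor Gucy2c (0.67 ± 0.25). Guca2a was no longer a DEG under 75th percentile scaling, and Gucy2c was none without LFD replicate 3, HFD replicate 2 or HFD replicate 4. Car12, a carbonic anhydrase, was higher with overlap (1.44 ± 0.64). Clca4a, a regulator of chloride conductance in surface epithelium, lay between 10.93 and 12.16 with LFD and read 12.72, 13.01, 14.09 and 12.71 with HFD (1.37 ± 0.37). Kcne2, a potassium channel subunit named after its values were seen, was higher by 2.57 ± 0.81 and was well above background on 1 of 4 LFD arrays.

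Lipid genes were mostly higher. Of 43 PPAR target and fatty acid oxidation genes 31 were higher, at a median of 0.14, and 2 were DEGs (4.65%, both higher, against 1.18%), a count that was 1 without LFD replicate 1, HFD replicate 2 or HFD replicate 3, 3 without LFD replicate 2 and 4 without HFD replicate 1. Mgll, the monoglyceride lipase and 1 of these DEGs, read 9.23, 9.12, 9.18 and 9.68 with LFD and 9.54, 11.17, 10.13 and 9.81 with HFD (0.86 ± 0.33, exact permutation p = 0.0571). LFD replicate 4 lay above HFD replicate 1, and Mgll was no longer a DEG without any 1 of LFD replicates 1, 2 or 3 or HFD replicates 2 or 3 (a difference of 0.52 without HFD replicate 2). In the lipogenesis and cholesterol list of 40, 28 were higher, and 3 DEGs were higher (7.5%, against 1.18%) and 1 lower (2.5%, against 1.01%). The 3 higher became 0 without HFD replicate 2 and by the methods' t-test, and 1 without HFD replicate 3. The elongase Elovl6 (0.74 ± 0.32) and the cholesterol synthesis enzyme Hmgcs1 (0.67 ± 0.27) were among those higher, and neither was a DEG without any 1 of LFD replicate 2, HFD replicate 2 or HFD replicate 3. Thrsp, a regulator of lipogenesis, was lower (-0.97 ± 0.31). Its values were 7.76, 7.46, 7.75 and 6.61 with LFD and 6.05, 6.21, 7.07 and 6.37 with HFD, so the diets overlapped.

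Absorptive genes better known from the small intestine held 3 DEGs of 25, all higher (12%, against 1.18%). The count was 1 without any 1 of LFD replicate 4, HFD replicate 2 or HFD replicate 3, and 2 without LFD replicate 2. Fabp2, the intestinal fatty acid binding protein, read 13.14, 11.71, 14.30 and 10.80 with LFD and 13.81, 15.40, 14.70 and 13.62 with HFD (1.90 ± 0.73, exact permutation p = 0.114). Slc3a1, a subunit of the cystine transporter, was higher by 2.03 ± 0.76, and Mogat2, which rebuilds triglyceride in enterocytes, by 1.14 ± 0.34 without overlap. LFD replicate 3 lay within the HFD range for Fabp2 and Slc3a1, and neither was a DEG without LFD replicate 2, LFD replicate 4, HFD replicate 2 or HFD replicate 3. Among 33 genes of cytochrome P450, glucuronidation, sulfation and carboxylesterase families, Cyp2c66 (1.86 ± 0.73), Cyp2c65 (1.77 ± 0.77), Ces1f (1.15 ± 0.47) and Ugt1a6a (0.65 ± 0.25) were higher (12.1%, against 1.18%). The count was 0 without LFD replicate 4 and by the methods' t-test, 1 without LFD replicate 1 or HFD replicate 2, 2 without LFD replicate 3, HFD replicate 3 or HFD replicate 4, and 6 without LFD replicate 2. Ces1f differed by 0.62 without HFD replicate 2. Cyp2c65 and Cyp2c66 are close paralogs and their probes may share signal. Of 33 genes of the glutathione S-transferase list, Gsta2 (-0.91 ± 0.26) and the related Gm10639 (-0.75 ± 0.32) were lower (6.06%, against 1.01%) and 0 were higher. Without HFD replicate 3, 3 were higher and 1 lower. Gm10639 was no longer a DEG in 10 of 18 alternative settings, among them the methods' t-test and 75th percentile scaling.

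Smooth muscle genes had a median difference of 0.69, and all 22 tested members were higher in F(OVX) + HFD, by 0.08 to 1.25. Of these, 5 were DEGs (22.7%, against 1.18%): desmin, Des (1.25 ± 0.49), calponin, Cnn1 (1.12 ± 0.40), the small heat shock protein Hspb6 (0.93 ± 0.31), enteric gamma actin, Actg2 (0.92 ± 0.34), and transgelin, Tagln (0.72 ± 0.32). Actg2 did not overlap between the diets. The mean level of the list was 10.32, 10.89, 9.75 and 10.86 with LFD and 10.78, 10.99 and 10.90 on HFD replicates 1, 3 and 4. HFD replicate 2 was highest of all and LFD replicate 3 lowest. The count was 1 without either of these arrays alone, 2 without LFD replicate 1 and 13 without LFD replicate 4, and without both HFD replicate 2 and LFD replicate 3 it was 1, with a median of 0.19 and 18 of 22 higher.

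Enteroendocrine genes were higher for 18 of 22 members at a median of 0.59. The 4 DEGs (18.2%, against 1.18%) were the glucagon precursor gene Gcg (1.13 ± 0.40), the short-chain fatty acid receptor Ffar2 (1.23 ± 0.49), the serotonin synthesis enzyme Tph1 (0.79 ± 0.27) and the lineage factor Pax4 (0.60 ± 0.23). Gcg read 11.51, 11.40, 11.43 and 9.82 with LFD and 11.80, 12.87, 12.04 and 11.96 with HFD, without overlap. The mean level of the list did not overlap either, at 8.37 to 8.96 with LFD and 9.04 to 9.58 with HFD. The count fell to 1 without HFD replicate 2 and to 2 without LFD replicate 4, and was 8 without LFD replicate 2 and 7 without LFD replicate 3, where 1 member was also lower.

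Genes of the nerve plexus were read from 2 lists. Of 12 glial and GDNF receptor genes, Gfra3 (0.83 ± 0.28), the endothelin receptor Ednrb (0.63 ± 0.15) and the neurotrophin receptor Ngfr (0.95 ± 0.38) were DEGs, all higher (25%, against 1.18%). The count was 1 without HFD replicate 3, 2 without LFD replicate 3, LFD replicate 4, HFD replicate 2 or HFD replicate 4, and 1 of 8 with detection required on all 8 arrays. Gfra3, the artemin receptor, read 8.41, 8.12, 7.95 and 7.13 with LFD and 8.50, 9.13, 8.51 and 8.80 with HFD. Of 17 enteric neuron genes 14 were higher at a median of 0.49 with 0 DEGs (4 with a replicate block). Their mean level was 8.96 on HFD replicate 2 and 7.71 to 8.06 on the other HFD arrays, and without that array 12 were higher at a median of 0.08. Fibroblast and matrix genes (35 tested) had 0 DEGs and a median of 0.04.

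**Figure D3:**
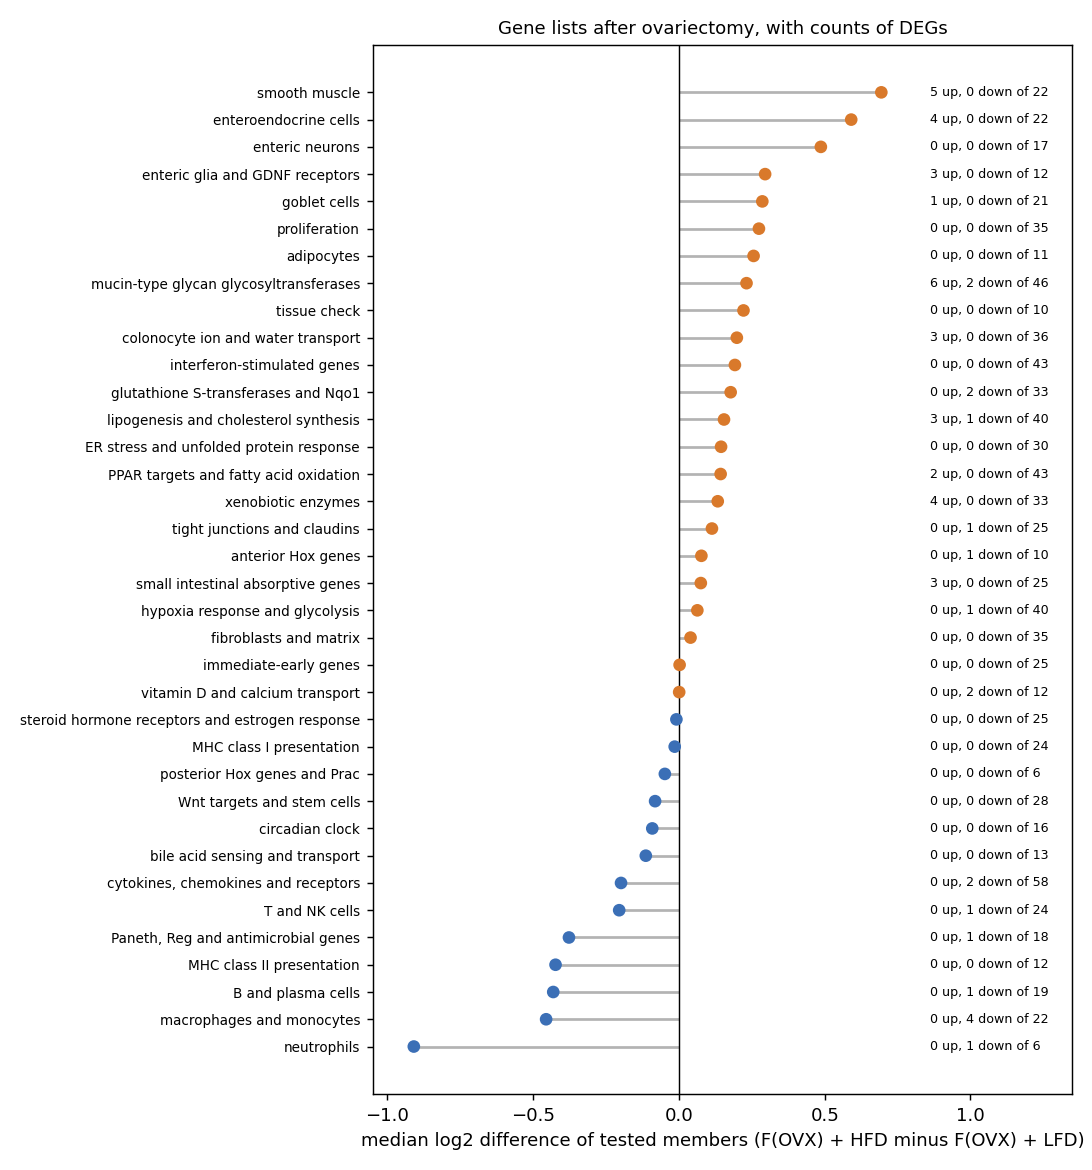
Median log2 difference between the diets (F(OVX) + HFD minus F(OVX) + LFD) over the tested members of each gene list, with the numbers of DEGs higher (up) and lower (down) at the right. Smooth muscle stood at 0.69, enteroendocrine cells at 0.59, macrophages at -0.46 and neutrophils at -0.91, beside 0.01 over all tested genes.

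Steroid receptor and estrogen response genes held 0 DEGs of 25, at a median of -0.01. Esr1, the estrogen receptor alpha gene, differed by -0.17 ± 0.38 and Esr2, the beta receptor gene, by 0.04 ± 0.17 (exact permutation p = 0.714 for each); both were named after their values were seen. Both were well above background on all 8 arrays. Wnt target and stem cell genes, circadian clock genes, bile acid genes, immediate-early genes and unfolded protein response genes also held 0 DEGs. Of 40 hypoxia and glycolysis genes Nos2 was the only DEG (2.5%, against 1.01% of all genes called lower). Of 25 tight junction genes Cldn14 was the only DEG and was lower (-0.82 ± 0.33), a share of 4% against 1.01% of all genes. Cldn14 was no longer a DEG in 8 of 18 alternative settings, among them the methods' t-test and the replicate block.

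Among the remaining DEGs without overlap, the rises included the proprotein convertase Pcsk5 (2.29 ± 0.72), the carboxypeptidase N subunit Cpn1 (2.18 ± 0.61), the protocadherin Pcdh17 (1.60 ± 0.27), the nicotinic receptor subunit Chrnb4 (1.52 ± 0.51) and the steroid dehydrogenase Hsd3b2 (1.32 ± 0.52). The noncoding Ptprtos and 4833412C05Rik, and the gene Shisa4, were higher by 1.82, 1.72 and 1.63, with 3, 2 and 2 of 4 LFD arrays well above background. With normexp background correction these differences were 0.58, 0.58 and 0.48, and none was a DEG. Chrnb4 was well above background on 2 of 4 LFD arrays, and Cpn1 on 3. Pcdh17 read 7.34, 6.49, 6.85 and 6.69 with LFD and 7.94, 8.87, 8.82 and 8.15 with HFD, without overlap. For Pcsk5 a probe assigned to another transcript accession, also well above background on all 8 arrays, differed by 0.01, so the rise belonged to 1 probe. The falls included the mast cell chymase Cma1 (-1.68 ± 0.71, but -0.93 and no longer a DEG without HFD replicate 2) and the small GTPase Rab38 (-1.39 ± 0.36). Others were the fast skeletal troponin Tnni2 (-1.31 ± 0.48), Cstdc5 of the cystatin family (-1.88 ± 0.53) and the noncoding 5430437J10Rik (-1.10 ± 0.29). Cma1, Rab38 and Cstdc5 were well above background on 3 of 4 HFD arrays, and 5430437J10Rik on 2.

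A transcript without a symbol in the tables used, NM_010031, was well above background on all 4 LFD arrays and on 0 of the 4 HFD arrays. Its LFD values were 4.20, 4.20, 12.38 and 13.73, so 2 of the arrays carried the signal. Against the floor of the HFD arrays, the mean of the higher of each array's lowest detected signal and the probe's own signal, it was at least 21.8-fold higher with LFD (adjusted p = 0.99996 in limma). It entered the test only through the LFD group, and its first 2 LFD values lay near the floor mean of 4.18.

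Hox genes from the posterior end of the clusters mark position along the gut, and Hoxd13 among them differed between pieces within the LFD group. Hoxd13, named after its values were seen, read 4.34, 10.87, 4.29 and 10.07 with LFD and 4.95, 4.93, 4.29 and 5.73 with HFD. LFD replicates 2 and 4 thus stood far above the other 6 arrays; Hoxd13 was well above background on too few arrays to enter the test. Hoxb13 lay between 13.90 and 14.44 with LFD and between 12.58 and 14.45 with HFD (-0.69 ± 0.35, exact permutation p = 0.171). None of 6 tested posterior Hox genes was a DEG. The mean level of that list was 10.29, 9.96, 10.49 and 10.39 with LFD and 10.19, 10.43, 9.79 and 10.34 with HFD. It did not set LFD replicates 2 and 4 apart as Hoxd13 did. Of 10 anterior Hox genes Hoxa5 was the only DEG, lower without overlap (-0.74 ± 0.20; 10%, against 1.01% of all genes).

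Several of the largest differences followed the same arrays. Fxyd4, a regulator of the sodium pump, read 9.17, 13.32, 9.18 and 13.08 with LFD and 8.94, 2.48, 5.75 and 9.25 with HFD (-4.58 ± 1.62, exact permutation p = 0.0857), highest on LFD replicates 2 and 4. St8sia5 and S100g were highest on the same pair, and B3gnt6, Pcsk5, Fabp2, Slc3a1 and Cdx2 were lowest on it. Cdx2 itself, the homeobox factor of intestinal identity, read 12.68, 11.10, 13.07 and 10.81 with LFD and 12.45, 13.53, 13.29 and 13.02 with HFD (1.16 ± 0.51, exact permutation p = 0.171). Without LFD replicates 2 and 4, 720 genes were DEGs, and 162 of the 421 (38.5%) were among them. Fxyd4 (-2.57), St8sia5 (-2.24), Fabp2 (0.66), Slc3a1 (0.91) and Cyp2c66 (1.34) were then no longer DEGs. Nos2 (-2.36), S100g (-2.45), Cd163l1 (-3.02), Muc4 (0.92) and B3gnt6 (1.73) remained DEGs. Of the 79 DEGs followed one by one, 39 were then no longer called. Smooth muscle then had 17 DEGs of 22 and macrophages 6 of 22. The part of the position of the sampled piece in these differences was not tested.

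**Figure D4:**
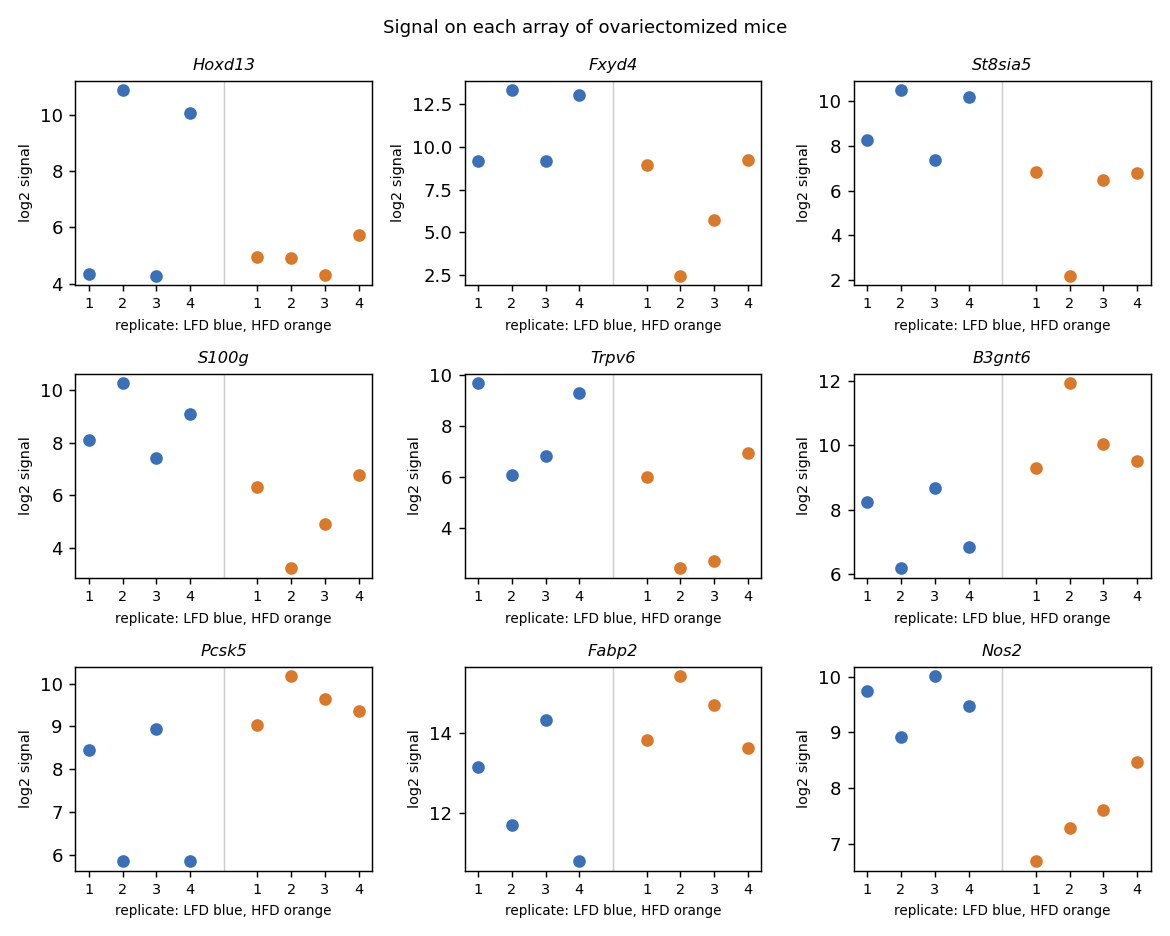
Log2 signal of 9 genes on each array of the ovariectomized mice, LFD replicates 1 to 4 in blue and HFD replicates 1 to 4 in orange. Hoxd13 stood at 10.87 and 10.07 on LFD replicates 2 and 4 and at 4.29 to 5.73 elsewhere. Fxyd4 and St8sia5 were highest and B3gnt6, Pcsk5 and Fabp2 lowest on that pair. Nos2 was a little lower on that pair than on the other LFD arrays, and above all HFD arrays.

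The diet difference after ovariectomy was compared with that of the ovary-intact females and of the males, each taken within its own slide; kind of mouse and slide cannot be told apart. For F(OVX) minus F, 334 of 22127 genes passed the DEG thresholds for the difference of the differences (1.51%), and 0 passed after adjustment in limma, with 470 at an unadjusted p under 0.05. Of the 421 DEGs, 30 were among the 334. The 421 were chosen on the same F(OVX) arrays that enter the contrast. That choice by itself raises the overlap, and also the differences of genes picked from the 421. Muc4 differed by 1.30 in F(OVX) and by -0.24 in F, a difference of 1.54 ± 0.71 (SE). Cd163l1 differed by -2.75 and -0.79 (difference -1.96 ± 0.91), and Thrsp by -0.97 and 0.05 (difference -1.02 ± 0.38). The noncoding Ptprtos differed by 1.82 and -0.18 (difference 2.00 ± 0.90), 9030622O22Rik by 0.94 and -0.67 (difference 1.61 ± 0.76) and 5430402E10Rik by 0.76 and -0.63 (difference 1.38 ± 0.39). These 6 passed the thresholds without adjustment. Nos2 was lower with HFD in both kinds of female, by -2.02 and -1.46, with a difference of -0.56 ± 0.92.

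For F(OVX) minus M, 1314 of 20763 genes passed the thresholds (6.33%), 1608 had an unadjusted p under 0.05, and the lowest adjusted p in limma was 0.351. Of the 421 DEGs, 225 were among the 1314, an overlap that the shared F(OVX) arrays again raise by themselves. St8sia5 differed by -3.51 in F(OVX) and by 4.55 in M (difference -8.06 ± 2.09, adjusted p = 0.529 in limma). The pairs of values were -4.58 and 5.54 for Fxyd4 (difference -10.12 ± 3.50), -3.41 and 2.73 for S100g (difference -6.14 ± 2.48) and -3.46 and 2.47 for Trpv6 (difference -5.93 ± 2.00). They were 2.44 and -4.23 for Ugt2b38, a glucuronosyltransferase (difference 6.67 ± 2.01). Ugt2b38 was well above background on 2 of 4 F(OVX) + LFD arrays. In F(OVX) it was no longer a DEG in 9 of 17 alternative settings, normexp background correction among them. The male arrays also differed in Hoxb13, which read 2.18, 5.04, 13.24 and 13.66 in M + LFD and 13.37 to 14.79 in M + HFD. Its diet differences were -0.69 in F(OVX) and 5.56 in M (difference -6.26 ± 2.27). Ccl17 differed by -2.04 in F(OVX) and 0.96 in M (difference -3.00 ± 0.82), and Muc4 by 1.30 and -0.74 (difference 2.05 ± 0.70). The part of position along the colon in the contrast with males was not tested.

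**Figure D5:**
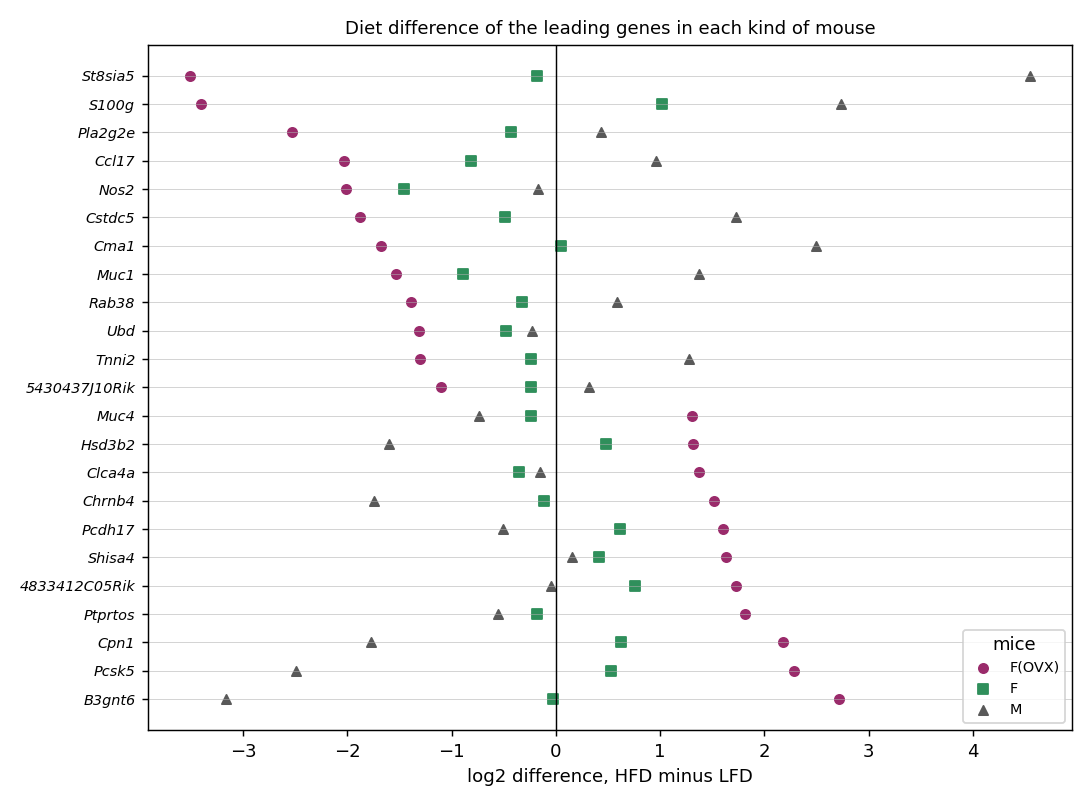
Log2 difference between HFD and LFD of 23 leading DEGs after ovariectomy, in F(OVX), F and M (means of 4 arrays per diet; the genes were chosen on the F(OVX) values). St8sia5 stood at -3.51 in F(OVX), -0.18 in F and 4.55 in M, and B3gnt6 at 2.71, -0.03 and -3.16.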

How the data were processed

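Total RNA of mouse colon was labelled with Cy3 and hybridized to 1-colour Agilent arrays. The authors deposited scanner files from Agilent Feature Extraction 11.0.1.1, whose processed signal is an intensity on a linear scale after background correction. Control spots were left out, spots marked as outliers were set to missing, and log2 signals were quantile-normalized over all 24 arrays, as in the methods. Spots of a probe were averaged, and the brightest probe over the 8 arrays stood for a gene. Of 56605 probes, 32994 (58.3%) were named through their accession in the RefSeq table of build GRCm38.p6, and the others kept the name in the file. Genes entered the test if detected above background throughout at least 1 diet (4 arrays).

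The diets were compared with limma 3.58.1 in R 4.3.3 (lmFit and eBayes, 4 arrays a side). The DEG thresholds of the methods were 1.5-fold and unadjusted p under 0.05, with Benjamini-Hochberg adjustment beside them. Values of some genes are not reported here. Differences of diet effects were contrasts of 6 groups over 24 arrays. The functions were tested on simulated data. The named genes and the 35 gene lists were chosen with earlier results of these data known. The rule for names took the 12 largest rises and 12 largest falls without overlap, called list members (at most 6 a list, or the 2 brightest where none was called), the 5 largest differences from F and from M, leading transcripts without a symbol, and Muc2, Gfra3 and Thrsp. Hoxd13, Kcne2, Esr1, Esr2, S100a9, St3gal1 and St3gal3 were added after their values were seen. The methods give 5 animals per group and the labels 4 samples. The labels do not say how samples relate to litters or cages, so p-values measure the spread between these samples, whose number limits the precision.

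Alternatives were 75th percentile scaling, quantile normalization of the 8 arrays, normexp (offset 50), no filter, a stricter filter, the mean of a gene's probes, the methods' t-test, a replicate block and leaving out arrays; 2 sets of arrays left out together were chosen after seeing the data.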

Additional observations from a re-analysis of the deposited data

Results flagged for a closer look

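Within each diet, 236 groups of 4 values (118 named genes) were checked for a sample far from the others, by Dixon's gap over range at the 95% level, and 15 were marked; chance marks about 1 in 20 such groups. F(OVX) + HFD replicate 2 was the distant sample in 7 of them. It was low for St8sia5 (2.19), Cstdc5 (4.41), Cma1 (4.33) and Rab38 (4.52), and high for Hsd3b2 (10.28), Actg2 (13.23) and Ces1f (11.59). F(OVX) + LFD replicate 3, the dimmest array, was low for Clca4a (10.93), 4833412C05Rik (2.94) and Jund (14.58). F(OVX) + LFD replicate 1 was high for Muc4 (13.11), F(OVX) + LFD replicate 2 high for Pck1 (13.08), and F(OVX) + LFD replicate 4 low for Gcg (9.82). F(OVX) + HFD replicate 4 was low for Cdh17 (10.80) and high for NM_010031 (2.94), which is not well above background there. No named gene differed in its diet effect between F(OVX) and F or M after adjustment.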

How the results depend on the processing

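The 421 DEGs (226 higher, 195 lower) became 269 with normexp background correction (135 higher), 848 without a filter on dim probes (373 higher, 475 lower), 208 by the methods' t-test (105 higher, 103 lower; 0 after Benjamini-Hochberg) and 720 without LFD replicates 2 and 4 (426 higher, 294 lower). Leaving out 1 array gave 207 to 684 DEGs, 94 to 338 higher and 113 to 348 lower; the lowest counts came without F(OVX) + HFD replicate 2, where 184 of the 421 remained, and the highest total without F(OVX) + HFD replicate 1. The other settings gave 326 to 449, and no gene passed adjustment in any of them. Same-numbered arrays of the diets sat in the same column of the slide, so replicate number and column cannot be told apart. They did not deviate together throughout (r = 0.31, -0.08, 0.26 and 0.21 over genes), and the numbers were not taken as pairs. Not every array correlated best with its own number (LFD replicate 2 and HFD replicates 2 and 4 did not). With a replicate block there were 553 DEGs (291 higher, 262 lower). For F(OVX) minus F, 334 became 835 without a filter, 188 with detection on all 24 arrays, 532 with the block and 187 to 539 without 1 array. For F(OVX) minus M, 1314 became 863 to 1831 without 1 array, lowest without F(OVX) + HFD replicate 2; without M + LFD replicate 4, 4 genes passed adjustment. Of 79 named DEGs, 18 stayed so in every setting that could be run (among them Nos2, Ccl17, Il18r1, Ubd, Pla2g2e, Cd163l1, S100g, Muc1, Rab38, Hoxa5, Gsta2, B3gnt6, Pcsk5, Muc4, Chst4, Clca4a and Pcdh17) and none reversed. Causes were not tested. Among those kept, the stricter filter could not be run for S100g, Ccl17, Pla2g2e, Cd163l1, Muc1 and Rab38. Signal near background limits the values of S100g, Trpv6, Pla2g2e, Cd163l1, Fxyd4, St8sia5 and 5430437J10Rik in F(OVX) + HFD. The same holds there for Ccl17, Cxcl5, Muc1, Rab38, Cstdc5 and Cma1, each well above background on 3 of 4 HFD arrays. All these genes entered the test only through the LFD group. In F(OVX) + LFD such signal limits the values of Ptprtos, 4833412C05Rik, Shisa4, Chrnb4, Kcne2 and Ugt2b38. The same holds there for Cpn1, Ednrb, Ngfr, Pax4, Ugt1a6a and 5430402E10Rik, each well above background on 3 of 4 LFD arrays. The genes limited in F(OVX) + LFD entered the test only through the HFD group.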
